A study of Saccharomyces cerevisiae with 4 samples.

Results

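The transcripts described here encode the cytosolic translation elongation factors of Saccharomyces cerevisiae (budding yeast). They were taken as 9 genes by systematic name: EFT1 (YOR133W), EFT2 (YDR385W), TEF1 (YPR080W), TEF2 (YBR118W), EFB1 (YAL003W), CAM1 (YPL048W), TEF4 (YKL081W), YEF3 (YLR249W) and HYP2 (YEL034W). Every position of the deposited site table assigned to one of them was used, which gave 13 of the 1892 listed positions in 6 of the 9 genes. The table lists positions of 5-formylcytidine (f5C), an oxidised form of 5-methylcytidine, in poly(A)+ RNA. Treated libraries came from RNA fragments exposed to 0.9 M pyridine borane for 24 h at 37 °C, which reduces f5C to a base that reverse transcriptase reads as U, and input libraries from RNA of the same kind without the reagent. Each group had 2 libraries, called replicates 1 and 2, from cells of a single colony grown overnight in rich medium. The labels name no strain, and nothing in them ties a replicate to its own culture, so SDs may measure technical spread alone. The p-values come from read counts and take counting error as the only spread.

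In each round of peptide elongation, eEF1A (TEF1 and TEF2, which encode the same protein) brings aminoacyl-tRNA to the ribosome as a complex with GTP. The eEF1B complex exchanges its nucleotide, with EFB1 as the catalytic subunit and CAM1 and TEF4 as alternative forms of the gamma subunit. The GTPase eEF2 (EFT1 and EFT2, which also encode the same protein) then moves the ribosome along the mRNA. Fungi need a further ATPase, eEF3 (YEF3), which acts on the exit site of the ribosome, and eIF5A (HYP2) helps at stretches where peptide bonds form slowly. These factors are among the abundant proteins of growing yeast.

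The 13 sites carried mutated reads at levels in the range of most listed sites. The level of a site is the percentage of its covering reads that were mutated, averaged over the 2 treated libraries. It ranged from 7.73% at the second site of YEF3 to 10.2% at the first site of EFT1, with a median of 8.43%. Of the 13 levels, 84.6% were under 10%, as were 72.5% of the levels of all 1892 listed sites. No listed site was under 7.5% in either treated replicate, so a narrow range is a trait of the list. In single libraries the range was 7.55% to 9.96% in treated replicate 1 and 7.60% to 11.1% in treated replicate 2. In input, 11 of 29502 covering reads were mutated in replicate 1 and 9 of 24510 in replicate 2 over all 13 sites, a share of 0.0370% with replicates summed (Wilson 95% interval 0.0240% to 0.0572%). The same share over all 1892 listed sites was 0.0460%. These intervals cover counting error only.

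Every one of the 13 sites had a higher mutated fraction in treated than in input RNA in both replicates. A two-sided Fisher exact test on reads summed over replicates called all 13, with a largest adjusted p of 5.14e-40 (Benjamini-Hochberg over 1892 sites). The same test called 100% of the listed sites. The deposited list holds only sites that passed on this contrast, so the count describes the list and says nothing particular about elongation factors. Differences from input ran from 7.70 to 10.1 percentage points. The lowest treated value in the table was 7.5% in either replicate, and YEF3 sites 2 and 3 were 0.0496 and 0.101 points above it in their lower library.

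**Figure D1:**
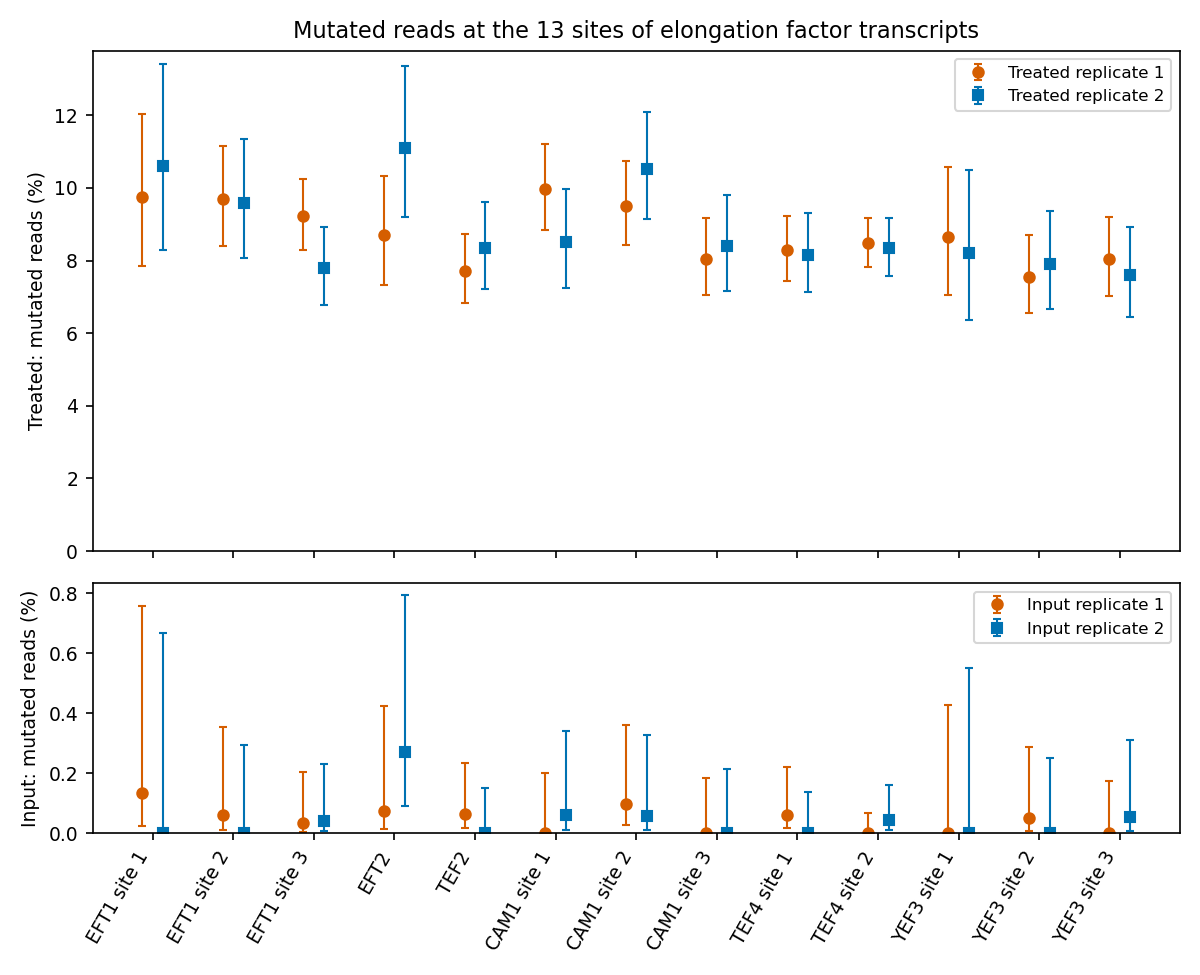
Mutated reads (%) at each of the 13 sites, treated libraries in the upper panel and input libraries in the lower panel, which has its own scale. Sites of a gene are numbered from 5′ to 3′; points are single libraries and bars are Wilson 95% intervals of their reads. All treated points lie between 7.55% and 11.1%, and the highest input point is 0.271% at EFT2.

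The eEF2 genes held 4 of the sites, 3 in EFT1 and 1 in EFT2. All 13 sites lie on the plus strand, and the sites of a gene are numbered from 5′ to 3′. EFT1 site 1 (chromosome XV, position 575154) had 76 of 780 reads mutated (9.74%) in treated replicate 1 and 59 of 557 (10.6%) in treated replicate 2, against 1 of 745 and 0 of 572 reads in input replicates 1 and 2. EFT1 site 2 (position 577276) had 172 of 1775 (9.69%) and 119 of 1243 (9.57%), against 1 of 1594 and 0 of 1296 in input. Its treated libraries were almost equal, with a level of 9.63% ± 0.0824 (SD, n = 2). EFT1 site 3 (position 577426) had 318 of 3448 (9.22%) and 187 of 2399 (7.79%), against 1 of 2755 and 1 of 2438 in input. This was the deepest EFT1 site and had the lowest level of the 3, at 8.51% ± 1.01 (SD, n = 2), with treated replicate 2 below replicate 1.

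The EFT2 site (chromosome IV, position 1243286) had 119 of 1366 reads mutated (8.71%) in treated replicate 1 and 99 of 891 (11.1%) in treated replicate 2, against 1 of 1325 and 3 of 1107 reads in input. The value in treated replicate 2 was the highest of any of the 13 sites in a single library, and the level of 9.91% ± 1.70 (SD, n = 2) had the widest spread. Its 3 mutated reads in input replicate 2 (0.271%) were also the most at any of the 13 sites in an input library. In the authors' deposited table the treated-over-input ratio at EFT2 was 115 in replicate 1 and 41 in replicate 2, the smallest ratio among the 13 sites.

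EFT1 and EFT2 encode the same protein from near-identical coding sequences, so their reads can be shared, and the handling of reads that match both genes is not stated in the labels or headers. With replicates summed, the EFT2 site had 9.66% mutated reads, against 10.1%, 9.64% and 8.64% at EFT1 sites 1, 2 and 3. The differences, EFT2 minus EFT1, were -0.44 points (Newcombe 95% interval -2.52 to 1.54), 0.0167 points (-1.58 to 1.65) and 1.02 points (-0.35 to 2.48). All 3 intervals include 0, and their widths leave room for differences of more than 1 point in either gene's favour at sites 1 and 2. The direction depended on the replicate at every EFT1 site: EFT2 was lower by 1.03, 0.979 and 0.511 points in replicate 1 and higher by 0.519, 1.54 and 3.32 points in replicate 2. All 3 comparisons use the reads of the same EFT2 site, so they are not independent of each other. Coverage differed more clearly than level. The EFT2 site had 1.75 and 1.60 times the reads of EFT1 site 1 in treated replicates 1 and 2 and 1.78 and 1.94 times in input replicates 1 and 2, but 0.396 and 0.371 times those of EFT1 site 3 in the treated libraries and 0.481 and 0.454 times in the input libraries. Without a genome the positions of the 2 genes were not aligned, so it was not tested whether any of these sites are the same place in both.

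The eEF1A genes held 1 site, in TEF2 (chromosome II, position 478649). It had 230 of 2978 reads mutated (7.72%) in treated replicate 1 and 170 of 2039 (8.34%) in treated replicate 2, against 2 of 3099 and 0 of 2547 reads in input. The level was 8.03% ± 0.434 (SD, n = 2), and the lower treated library stood 0.223 points above the 7.5% minimum. TEF1 had 0 listed sites. Since TEF1 and TEF2 can share reads, the assignment of the site to TEF2 alone rests on the authors' counting, and TEF1 reads at other positions were not analysed here.

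Of the eEF1B genes, CAM1 held 3 sites, TEF4 held 2 and EFB1 held 0. CAM1 site 1 (chromosome XVI, position 464577) had 249 of 2500 reads mutated (9.96%) in treated replicate 1 and 138 of 1623 (8.50%) in treated replicate 2, against 0 of 1918 and 1 of 1660 reads in input. CAM1 site 2 (position 465502) had 234 of 2460 (9.51%) and 176 of 1672 (10.5%), against 2 of 2019 and 1 of 1722 in input. The replicates thus moved in opposite directions at these sites, and their levels were 9.23% ± 1.03 and 10.02% ± 0.717 (SD, n = 2). CAM1 site 3 (position 465526) had 202 of 2513 (8.04%) and 144 of 1716 (8.39%), against 0 of 2067 and 0 of 1794 in input, where 0 of 3861 reads allows a share of up to 0.0777%. It was the lowest of the 3 CAM1 sites in both treated libraries, at 8.21% ± 0.250 (SD, n = 2).

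TEF4 encodes the other gamma form and had the deepest sites of the group. TEF4 site 1 (chromosome XI, position 283536) had 306 of 3695 reads mutated (8.28%) in treated replicate 1 and 201 of 2465 (8.15%) in treated replicate 2, against 2 of 3305 and 0 of 2794 reads in input. TEF4 site 2 (position 283823) had 567 of 6690 (8.48%) and 382 of 4581 (8.34%), against 0 of 5605 and 2 of 4547 in input. The levels of 8.22% ± 0.0900 and 8.41% ± 0.0966 (SD, n = 2) had small spreads in both cases, and the difference between them was 0.19 points (Newcombe 95% interval -0.68 to 1.03).

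YEF3 held 3 sites, all on chromosome XII. Site 1 (position 636846) had 86 of 994 reads mutated (8.65%) in treated replicate 1 and 56 of 683 (8.20%) in treated replicate 2, against 0 of 891 and 0 of 694 reads in input, a limit of 0.189% mutated input reads. Site 2 (position 637072) had 175 of 2318 (7.55%) and 121 of 1530 (7.91%), against 1 of 1966 and 0 of 1524 in input. Site 3 (position 638267) had 195 of 2424 (8.04%) and 134 of 1763 (7.60%), against 0 of 2213 and 1 of 1815 in input. Sites 2 and 3 had the lowest levels of all 13, at 7.73% ± 0.254 and 7.82% ± 0.314 (SD, n = 2). HYP2, the eIF5A gene, had 0 listed sites.

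Averaged over the sites of a gene, the order of levels was EFT2 with 9.91% ± 1.70, EFT1 with 9.44% ± 0.164, CAM1 with 9.16% ± 0.0211, TEF4 with 8.31% ± 0.0933, TEF2 with 8.03% ± 0.434 and YEF3 with 7.99% ± 0.127 (SD, n = 2 each). CAM1 lay above TEF4 by 0.843 points on these means and by 0.803 points on summed reads (Newcombe 95% interval 0.155 to 1.46). The SD of CAM1 is small because its sites 1 and 2, with SDs of 1.03 and 0.717, moved in opposite directions between replicates, and the interval counts reads of sites 2 and 3, which can be the same reads, as independent. The CAM1 sites, from 8.21% to 10.02%, spanned those of TEF4, 8.22% and 8.41%. The replicate means of EFT2 and EFT1, of TEF4 and TEF2, and of TEF2 and YEF3 overlapped. Those of EFT1 and CAM1 did not, but on summed reads EFT1 (9.13%) and CAM1 (9.16%) differed by -0.03 points (interval -0.78 to 0.73), since the deepest EFT1 site had that gene's lowest level. The order of EFT1 and CAM1 therefore depended on how sites were weighted. These intervals cover counting error, and no test across genes was made.

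The 13 sites were also compared between the treated replicates. In a two-sided Fisher exact test, 0 of 13 passed an unadjusted p of 0.05, where 2.75% of the 1892 listed sites did, and 0 of 1892 passed after adjustment. The smallest unadjusted exact p among the 13 were 0.0584 at EFT1 site 3 and 0.0682 at EFT2. Of the 13 sites, replicate 2 had the higher value at 6 and the lower at 7. The absolute difference between replicates had a median of 0.453 points, against 0.870 points over all listed sites. Deep sites were those with 1000 reads or more in each of the 4 libraries. Over the 10 deep sites among the 13 the median was 0.401 points, against 0.467 points over the 327 other deep sites. The table keeps only sites that passed in both replicates, so these values hold for selected sites.

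Levels within one transcript were compared for every pair of sites of the same gene in the whole table, 968 pairs in 425 genes, of which 10 pairs belonged to EFT1, CAM1, TEF4 and YEF3. By Fisher exact test on treated reads summed over replicates, 0 of the 10 pairs passed an adjusted p of 0.05, against 7.44% of all pairs. At an unadjusted p of 0.05, 1 of the 10 passed, against 15% of all pairs. That pair was CAM1 sites 2 and 3, which lie 24 nt apart. Site 3 had 8.18% and site 2 had 9.92% mutated reads, a difference of -1.74 points (Newcombe 95% interval -2.97 to -0.51, exact p = 0.00601, adjusted p = 0.0701). Site 3 was lower in both treated libraries, by 1.47 points in replicate 1 and 2.13 points in replicate 2. At this distance a read can cover both sites, and the test treats the counts as independent. No listed site was under 7.5% in either treated replicate, so lower positions of a transcript did not enter the 10 pairs.

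The intervals of the 9 other pairs included 0. EFT1 site 3 was lower than site 1 by 1.46 points (interval of the difference -3.32 to 0.218, exact p = 0.0989). It was lower than site 2 by 1.01 points (-2.31 to 0.245, exact p = 0.117). Site 3 minus site 1 was -0.521 and -2.80 points in treated replicates 1 and 2, and site 3 minus site 2 was -0.467 and -1.78 points. Over all pairs of the table, 60.7% had the same direction in both treated libraries. Both EFT1 pairs use the reads of site 3, so they are not independent of each other. CAM1 site 3 minus site 1 was -1.20 points (-2.42 to 0.00957, exact p = 0.0532). By library this was -1.92 points in treated replicate 1 and -0.111 points in treated replicate 2. Between CAM1 sites 2 and 1 the treated replicates had opposite signs, -0.45 points in replicate 1 and 2.02 points in replicate 2. The 3 YEF3 pairs differed by between -0.78 and 0.17 points, and all 3 intervals included 0.

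**Figure D2:**
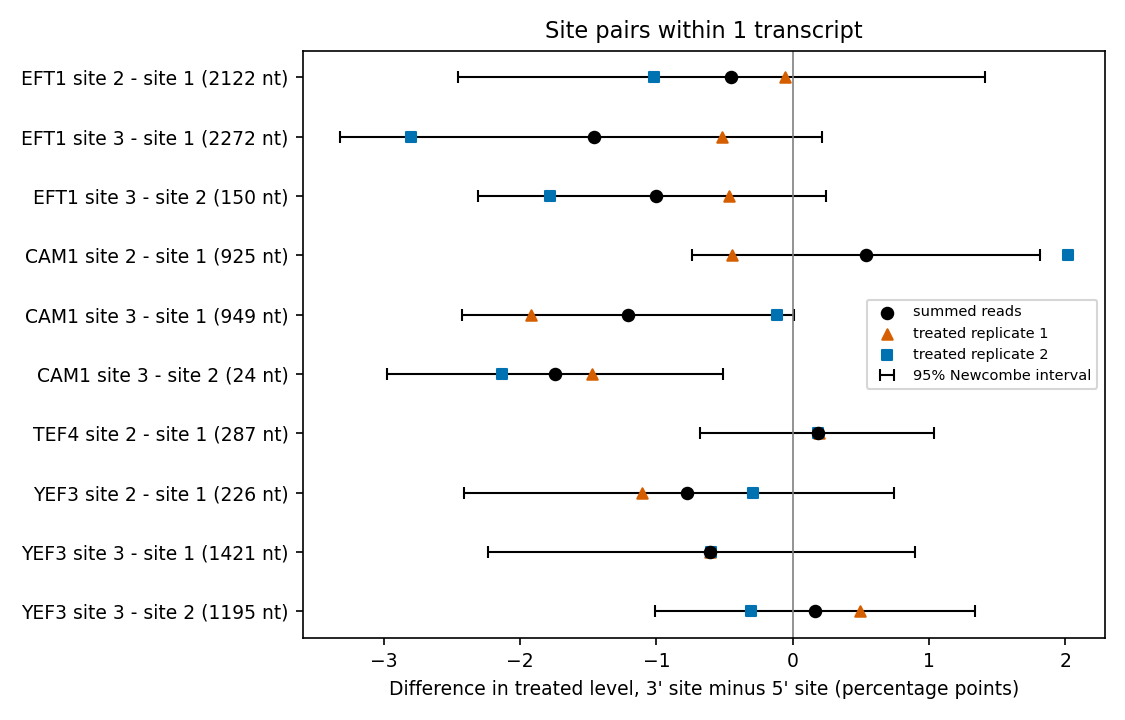
Difference in treated level (percentage points) between 2 sites of one transcript, the 3′ site minus the 5′ site, for the 10 pairs in EFT1, CAM1, TEF4 and YEF3, with the genomic distance in brackets. Black points are reads summed over replicates with Newcombe 95% intervals, triangles and squares are the single treated replicates; the pair of CAM1 sites 2 and 3 has an interval that leaves out 0, from -2.97 to -0.51.

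Spacing within the transcripts was uneven. Genomic distances between neighbouring sites were 2122 and 150 nt in EFT1, 925 and 24 nt in CAM1, 287 nt in TEF4, and 226 and 1195 nt in YEF3, with a median of 287 nt over these 7 gaps against 311 nt over all 636 neighbouring pairs of the table. The CAM1 gap was the only one of the 7 at or under 24 nt, and 13.2% of all neighbouring pairs were that close. Of the 1253 genes with a site, 137 (10.9%) had 3 or more, and EFT1, CAM1 and YEF3 were among them.

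Coverage was higher toward the 3′ end in EFT1, TEF4 and YEF3. The 3′ site had more reads than its 5′ neighbour in all 4 libraries in 6 of the 7 neighbouring pairs, where 49.8% of all 636 neighbouring pairs of the table had this order. In EFT1, site 3 had 4.42 and 4.31 times the reads of site 1 in treated replicates 1 and 2, and 3.70 and 4.26 times in input replicates 1 and 2. In YEF3 the step lay between sites 1 and 2, with 2.33 and 2.24 times in the treated libraries and 2.21 and 2.20 times in the input libraries, and TEF4 site 2 had 1.81 and 1.86 times the treated reads and 1.70 and 1.63 times the input reads of site 1. Other steps were small. YEF3 site 3 had 1.05 and 1.15 times the treated reads and 1.13 and 1.19 times the input reads of site 2. CAM1 was flat, with ratios of site 2 to site 1 of 0.984 and 1.03 in the treated libraries and 1.05 and 1.04 in the input libraries, and of site 3 to site 2, counted among the 6, of 1.02 and 1.03 in the treated and 1.02 and 1.04 in the input libraries. The rise in EFT1, TEF4 and YEF3 was thus present in untreated RNA too. The part of this rise in the levels was not tested. EFT1 can share reads with EFT2, and whether this bears on its coverage from site to site was not tested.

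**Figure D3:**
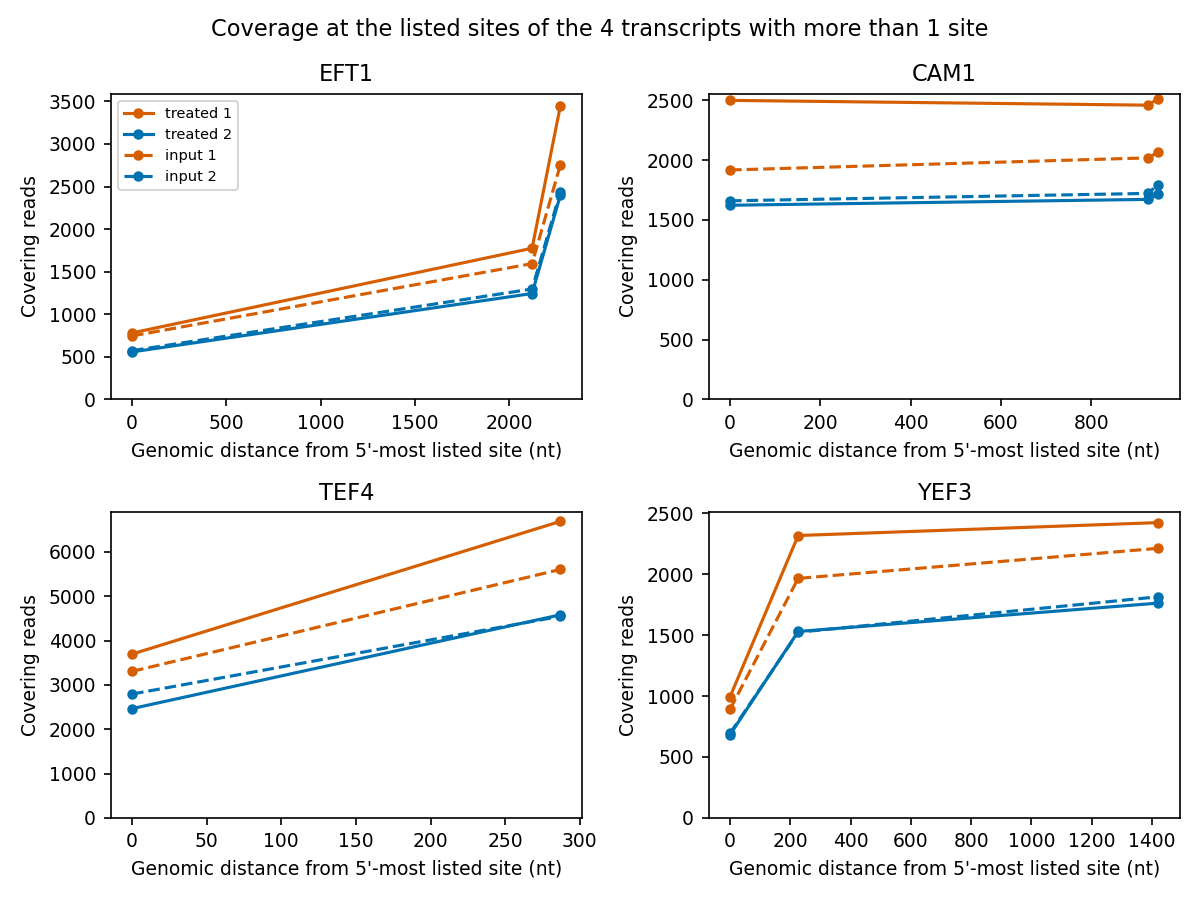
Covering reads at the listed sites of EFT1, CAM1, TEF4 and YEF3 against genomic distance (nt) from the first listed site at the 5′ end; solid lines are treated and dashed lines input libraries, 1 point per site. EFT1 climbs to 3448 and 2399 reads in treated replicates 1 and 2 at its last site, while CAM1 stays between 2460 and 2513 reads in treated replicate 1.

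The ratio of treated to input coverage was compared with that of the whole table as a measure that did not enter the choice of genes. Its median over the 13 sites was 1.12 in replicate 1 and 0.971 in replicate 2, against 1.14 and 0.973 over all 1892 sites. TEF2 had the lowest ratio of the 13 in both replicates, 0.961 and 0.801. Counted from the lowest ratio, it ranked 103 and 83 of 1892 listed sites in replicates 1 and 2, and 3 and 1 of the 337 deep sites. EFT2 followed with 1.03 and 0.805, ranks 297 and 89 of 1892, while the 3 EFT1 sites had 1.05 to 1.25 in replicate 1 and 0.959 to 0.984 in replicate 2. TEF2 and EFT2 were singled out after their values were seen, both have a paralog that encodes the same protein, and whether this bears on their ratios was not tested.

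The elongation factor sites were deeper than the list as a whole. Their median coverage was 2460 and 1672 reads in the treated libraries, against 469 and 327.5 reads over all listed sites. In the input libraries it was 2019 and 1722 reads, against 417.5 and 338 reads. All 13 lay above the median coverage of the table. Coverage at a single position needs no correction for gene length. TEF4 ranked 51 among the 1253 genes with a site by mean treated coverage of its listed sites, with 4358 reads, and EFT2 ranked 227, with 1128.5 reads. These ranks depend on which positions were listed, as the EFT1 sites alone ran from 668.5 to 2923.5 mean treated reads. The rank of EFT2 rests on 1 site that can share reads with EFT1. Of the 13 levels, 5 lay above the median of 9.002% over all listed sites, where 50% do by construction. The 10 deep elongation factor sites had a median of 8.31%, against 8.49% at the 327 other deep sites. By replicate their medians were 8.38% and 8.34%, against 8.43% and 8.51% at the other deep sites, and no test was made of this difference.

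**Figure D4:**
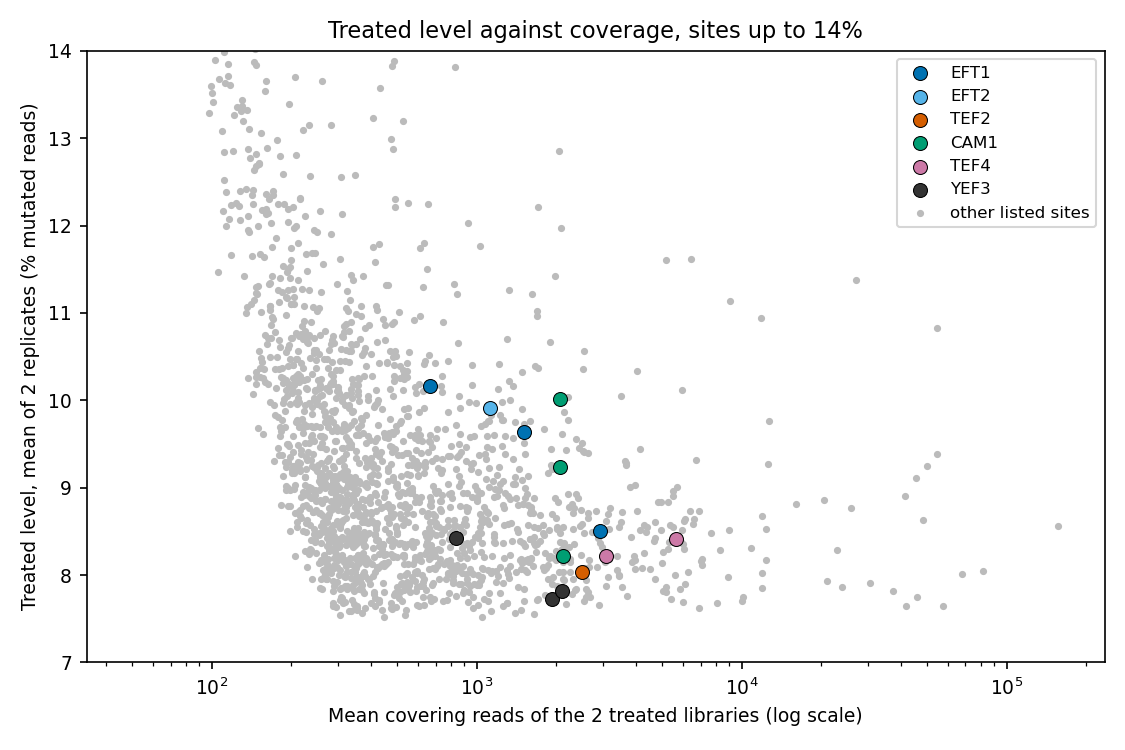
Treated level (% mutated reads, mean of 2 replicates) against the mean coverage of the 2 treated libraries (log scale); grey points are other listed sites and coloured points the 13 sites by gene. The axis ends at 14%, which leaves out 75 sites; the coloured points run from 7.73% to 10.2%, and the 10 of them that are deep have a median of 8.31%, against 8.49% at other deep sites.

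The authors' deposited p-values at these sites correspond to a one-sided binomial test against a fixed rate. Solved for that rate, the 13 sites gave medians of 1.83% in replicate 1 and 1.81% in replicate 2. The treated levels were 4.14 to 5.46 times this rate in replicate 1 and 4.20 to 6.14 times in replicate 2. The labels and headers do not state where the rate comes from.

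Other genes of translation were counted by whether they held a listed site, where 20.8% of all 6002 nuclear protein-coding genes did and 6 of the 9 elongation factor genes did. Gene expression and length were not used in these counts. Of 10 further genes of elongation, 1 had a site: TMA46, with a level of 9.31% ± 0.104 (SD, n = 2). Of 16 genes whose products modify elongation factors, among them the diphthamide enzymes that act on eEF2, 1 had a site. It was DYS1, the deoxyhypusine synthase that acts on eIF5A, with 8.31% ± 0.153 (SD, n = 2), while its substrate gene HYP2 had none listed. Of 5 genes of termination and recycling, RLI1, the ATPase that splits ribosomes after termination, had 1 site at 10.5% ± 1.96, and DOM34, which rescues stalled ribosomes, had 1 at 13.1% ± 1.45 (SD, n = 2 each). Both were shallow, with 272 and 109.5 reads on average in the treated libraries.

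Among 29 initiation genes 11 had a site, with 18 sites in all. TIF1 and TIF2, which encode the same eIF4A protein and can share reads, had 2 sites each at mean levels of 9.68% ± 0.354 and 9.88% ± 0.651. TIF3, SUI3, PRT1, PAB1 and GCN3 also had 2 sites each, from 8.08% ± 0.123 in SUI3, the beta subunit of eIF2, to 9.22% ± 0.194 in GCN3. The 4 genes with 1 site were RPG1 with 8.65% ± 0.357, GCD11 with 8.79% ± 0.717, DED1, an RNA helicase, with 11.8% ± 3.26 and GCD2 with 12.0% ± 2.45 (SD, n = 2 each). DED1 and GCD2 had 427 and 208 reads on average in the treated libraries, and GCN3, at a lower level, had 238.75. In coverage and level together, the other genes with 2 or more sites nearest to the mean of the 6 elongation factor genes were SDS24, RPL9A and TSL1, at distances of 0.0411, 0.0429 and 0.0469 SD over the genes with a site. They had 2 sites each and mean levels of 8.73%, 8.87% and 8.67%, against 8.81% as the mean of the 6 genes. Their closeness in level follows from how they were chosen.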

How the data were processed

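Sample titles gave the groups and the replicate numbers. Per the file headers, the deposited table gives counts of covering and mutated reads per site for each of the 4 libraries, together with the authors' fraction, which is the quotient of these counts. The deposited fold change is a ratio of fractions, treated over input, with a deposited p-value and q-value for each replicate. The submitters' processing notes name cutadapt and STAR. Tool versions, genome build and site caller: not given in the sources used here. Positions are printed as in the table, and gene symbols for all 9 genes came from a RefSeq gene table. No sequence or gene coordinate was used.

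Each test ran on the whole table with Benjamini-Hochberg adjustment over it: Fisher exact tests on summed reads with a minimum of 10 reads per group, between treated replicates, and between sites of one gene. These tests were checked on simulated data with counting error as the only spread. Reads shared between sites, spread beyond counting and the 7.5% minimum of the list were not simulated, so the check does not cover them. Intervals are Wilson or Newcombe 95% intervals, and an upper limit at 0 reads is 3 reads over the coverage. All describe counting error only, as no molecular identifiers are stated. Total library depths are unknown. The genes, lists and tests were chosen with earlier results of these data known. By rule, the text names all 9 genes with every site, the genes of 4 translation lists that had a site, and the 3 genes nearest in coverage and level. Alternatives covered the coverage minimum, leaving out a replicate, the replicate number as a block, input subtraction, summed reads, and leaving out the pairs with identical proteins. The software was Python 3.11.15 with numpy 2.4.6, scipy 1.17.1, pandas 2.3.3 and matplotlib 3.10.9.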

Additional observations from a re-analysis of the deposited data

How the results depend on the processing

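All 13 sites were called higher in treated RNA with coverage minimums of 20 reads, 50 reads and none, with either replicate left out, and with the Cochran-Mantel-Haenszel test that takes the replicate number as a block (13 sites). The authors' selection in both replicates fixes this count. Deviations of same-numbered libraries correlated at -0.01 in log2 coverage over 1892 sites, so the numbers are not shown to pair the libraries. The median level of 8.43% was 8.34% to 8.65% with a replicate left out, 8.47% from summed reads, 8.31% without EFT1, EFT2 and TEF2, and also 8.31% at sites with at least 1000 reads. Of the 10 pairs of sites in elongation factor genes (7 with neighbouring sites only), 0 passed under each of the 4 alternatives, where 8.49% of all pairs of the table passed with neighbouring sites only, 4.65% without replicate 1, 5.06% without replicate 2 and 7.75% with the replicate block. The adjusted exact p of CAM1 sites 2 and 3 was 0.0637 with neighbouring sites only. With the replicate block, the adjusted p of the Cochran-Mantel-Haenszel test was 0.0649. The difference, site 3 minus site 2, was -2.13 points without replicate 1 and -1.47 points without replicate 2, each from fewer reads. Neighbouring pairs with more reads at the 3′ site were counted after seeing the data. The count was 6 of 7 in all 4 libraries, against 49.8% of all 636 neighbouring pairs. It was 6 in the treated libraries, 7 in the input libraries, and 6 to 7 with a replicate left out. The shares of all pairs under these other settings were not counted, so these counts cannot be set against the table. The pair that changed was CAM1 sites 1 and 2, with coverage ratios from 0.984 to 1.05. The comparison of matching positions in EFT1 and EFT2 was not run for lack of an aligned sequence of these genes.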
